A study of Mus musculus with 14 samples.

Results

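The second wave of gene expression in 3T3-L1 was taken as the genes that decayed or started between 1h and the 2h and 4h libraries after the induction of adipogenesis. A gene was a member where log2(RPKM + 1) differed from 1h by at least 1 and the higher RPKM of the pair was at least 2. RPKM is the read number scaled to transcript length and library size. Each gene symbol was read from the transcript with the highest mean RPKM over the 14 libraries of the series. Members numbered 1140 of 22836 gene symbols, and 10355 symbols reached 2 RPKM in at least 1 of the 3 libraries compared.

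The series holds RNA sequencing of 14 mouse samples, 1 library a group, 6 of them from 3T3-L1, 6 from an immortalized brown preadipocyte line and 2 from brown adipose tissue. The labels call 3T3-L1 an immortalized white preadipocyte line of strain C57BL/6J. Confluent cells (0h) received 0.02 µM insulin, 1 nM of the thyroid hormone T3, 0.5 mM of the phosphodiesterase inhibitor IBMX, 1 µM of the glucocorticoid dexamethasone and 0.125 mM indomethacin, and were taken at 1h, 2h, 4h, day 2 and day 7. The brown line, set beside 3T3-L1 at the same hours, came from interscapular fat of newborn pups with floxed Pparg alleles and carries SV40 T antigen, and no Cre is named. The growth text of the labels describes the brown line for every sample, so the culture conditions of 3T3-L1 are not certain. With 1 library a group no test was possible, and in bulk RNA a smaller share of responding cells and less RNA per cell cannot be told apart.

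The induction mixture acts on cells along several routes. IBMX keeps cAMP high and so keeps the transcription factor CREB active, dexamethasone binds the glucocorticoid receptor, and insulin acts through its own receptor and that of IGF1. Serum-response, cAMP-response and NF-kB-driven immediate early genes need no new protein to start, and their messages are short-lived, many through AU-rich elements in the 3′ untranslated region that recruit decay factors such as Zfp36 (tristetraprolin). Genes that begin later are a mix of slow primary targets and targets of the early factors, and in preadipocytes they precede a round of cell division and the C/EBP and PPARγ programme of the following days.

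The promoters of 4 members show 4 of the 6 kinds of element that were searched for, each in a gene with a large difference. They are RefSeq sequences of build GRCm38.p6, from 250 bases before to 50 bases after the start site, and capitals mark the match. Cxcl1 and Btg2 decayed and hold an NF-kB and a cAMP-response match (TGACGTCA), Zfp36 decayed and holds a serum-response (CArG box) match, and Fgl2 started and holds an AP-1 match (TGANTCA).
Cxcl1, chr5:90890995-90891294, plus strand: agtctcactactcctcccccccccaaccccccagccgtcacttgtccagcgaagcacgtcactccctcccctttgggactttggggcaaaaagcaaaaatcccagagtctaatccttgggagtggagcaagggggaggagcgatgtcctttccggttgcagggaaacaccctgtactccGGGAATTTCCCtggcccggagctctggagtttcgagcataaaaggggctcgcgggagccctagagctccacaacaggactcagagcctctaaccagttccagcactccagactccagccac
Btg2, chr1:134079106-134079405, minus strand: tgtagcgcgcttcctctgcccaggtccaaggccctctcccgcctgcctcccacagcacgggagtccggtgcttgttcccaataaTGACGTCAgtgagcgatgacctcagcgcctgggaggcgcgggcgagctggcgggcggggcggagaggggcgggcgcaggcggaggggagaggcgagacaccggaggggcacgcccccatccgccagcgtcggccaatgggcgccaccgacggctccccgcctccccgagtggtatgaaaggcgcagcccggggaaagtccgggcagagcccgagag
Zfp36, chr7:28379179-28379478, minus strand: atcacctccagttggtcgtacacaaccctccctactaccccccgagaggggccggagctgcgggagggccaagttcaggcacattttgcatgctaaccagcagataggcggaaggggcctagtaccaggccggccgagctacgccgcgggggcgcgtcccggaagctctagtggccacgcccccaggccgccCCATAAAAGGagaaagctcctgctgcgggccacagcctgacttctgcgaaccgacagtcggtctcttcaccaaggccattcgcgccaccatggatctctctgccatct
Fgl2, chr5:21372423-21372722, plus strand: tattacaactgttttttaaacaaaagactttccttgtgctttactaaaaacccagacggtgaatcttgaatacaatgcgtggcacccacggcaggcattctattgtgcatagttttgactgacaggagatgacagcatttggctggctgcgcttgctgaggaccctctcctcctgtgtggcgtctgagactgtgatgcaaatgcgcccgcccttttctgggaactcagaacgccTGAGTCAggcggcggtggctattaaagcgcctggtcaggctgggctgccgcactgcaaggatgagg

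Of the genes with 1 such window, TGANTCA stood in 4.24% of all 6482 at 2 RPKM or more, in 7.98% of all 22862 windows, in 8.40% of those lower at 2h and 12.82% of those higher at 2h (10 of 78). The NF-kB pattern stood in 4.86% of windows at 2 RPKM or more, 9.92% of those lower at 2h (13 of 131) and 3.85% of those higher. TGACGTCA stood in 3.50% of windows at 2 RPKM or more, 3.82% of those lower and 1.28% of those higher at 2h, and 2.83% of those lower and 2.35% of those higher at 4h. The CArG box stood in 1.31% of windows at 2 RPKM or more, 2.29% and 2.56% of those lower and higher at 2h, and 2.83% and 2.35% at 4h. At 4h the share with TGANTCA was 8.22% for genes lower and 7.04% for genes higher, and that with the NF-kB pattern 6.80% and 3.76%. The sterol element TCACNCCAC stood in 0.93% of windows at 2 RPKM or more, 0 of those lower or higher at 2h, 1.13% and 0.47% of those lower and higher at 4h, and 0 of 13 in the cholesterol list. The glucocorticoid element AGAACANNNTGTTC had 0 matches among windows at 2 RPKM or more. It stood in only 9 of all 22862 windows (0.04%), so this search could hardly find it in the sets. Both strands were searched, overlapping matches of 1 motif were kept, and a match is a run of letters, not a measured binding site.

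The AU-rich nonamer TTATTTATT, a core of the sites that Zfp36 binds, is shown with 10 bases on either side from the 3′ untranslated region of members that decayed, and of Il11, which started. The sequences are of the GENCODE transcripts of build GRCm38, with the nonamer in capitals.
Fos: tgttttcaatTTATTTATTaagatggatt
Zfp36: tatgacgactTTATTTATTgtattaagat
Cxcl1: atttatgtatTTATTTATTccacaaagtg
Ptgs2: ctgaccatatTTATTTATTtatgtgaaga
Plk2: aataaactttTTATTTATTacagccccaa
Thbs1: taaatacagaTTATTTATTaaccctgttc
Adamts5: tgtgatgaaaTTATTTATTcttatttaac
Il11: aaaccagatcTTATTTATTtatttatttt

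The 3′ untranslated region held this nonamer in 5 of 18 genes of the AP-1 and EGR list (27.78%) and in 7.21% of 9635 genes at 2 RPKM or more. It was in 9.13% of genes lower at 2h, 13.82% of genes higher at 2h, 9.86% of genes lower at 4h and 9.76% of genes higher at 4h. Genes higher at 2h had the longest of these regions, with a median of 1474 bases against 1004 in all, and genes lower at 2h a median of 942. Per kb of pooled region, the nonamer stood at 0.0932 in genes higher and 0.0898 in genes lower at 2h, against 0.0639 in all. Ereg, Klf5, Adamts9 and Hk2, which were higher at 2h and are not printed above, held it too. Copies per region ran from 5 in Il11 and 2 in Cxcl1 to 0 in Egr3, Fosb and Btg2, so genes that decayed furthest were found both with and without it.

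Depth in 3T3-L1 was 48.65 to 56.73 M reads (M, mega) at 0h to 4h, recovered from the steps of low RPKM values, and a single read on 2 kb came to 0.00881 to 0.0103 RPKM at 1h to 4h. A value of 2 RPKM on 2 kb rested on 195 to 227 reads. Over the 124 genes that the naming rule picked, the 1h library had a median of 2932 reads. The 95% counting interval of the log2 ratio of reads, 4h to 1h, had a median of ±0.09 and at most ±0.74 among those past the fold. It leaves out the 1 added to RPKM, so for low genes it is wider than the interval of the difference given. These intervals cover counting error only, not the spread between cultures. Preadipocyte and fibroblast markers summed to 5893 to 6146 RPKM from 0h to 4h, a sum that abundant members carry (the highest at 1782 RPKM). Of 13 measured, 2 were lower at 4h as deposited, Pdgfrb (−1.48) and Pdgfra (−1.07), and 0 higher. Pdgfra was inside the fold after either rescaling. The counts at 4h were then 1 lower and 1 higher by the median of ratios, and 1 lower and 0 higher by quantile scaling. Macrophage and endothelial markers had no member at 2 RPKM, with Ptprc, Emr1, Cd3e, Kdr and Tie1 listed at 0 in the 3 libraries compared and a highest member of 1.77 and 0.80 RPKM.

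At 2h, 227 genes (2.19%) stood lower than at 1h and 142 (1.37%) higher. At 4h, 628 (6.06%) stood lower and 373 (3.60%) higher. The counts within lists given below are to be set beside these shares of all genes. The 1h library is shared by both comparisons, so a 1h value that was off would move both. By their calls at the pair of times, 124 members were lower at both, 103 at 2h alone, 503 at 4h alone, 105 higher at both, 36 at 2h alone and 268 at 4h alone, and Nr4a3 was higher at 2h and lower at 4h. The split depends on how the libraries are scaled, because the median of all genes was −0.14 at 2h and −0.13 at 4h as deposited. Rescaled by the median of ratios, which moved these medians to 0.01 and −0.01, the counts were 138 lower and 208 higher at 2h and 487 and 484 at 4h. Quantile scaling gave 106 and 191 at 2h and 406 and 456 at 4h.

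**Figure D1:**
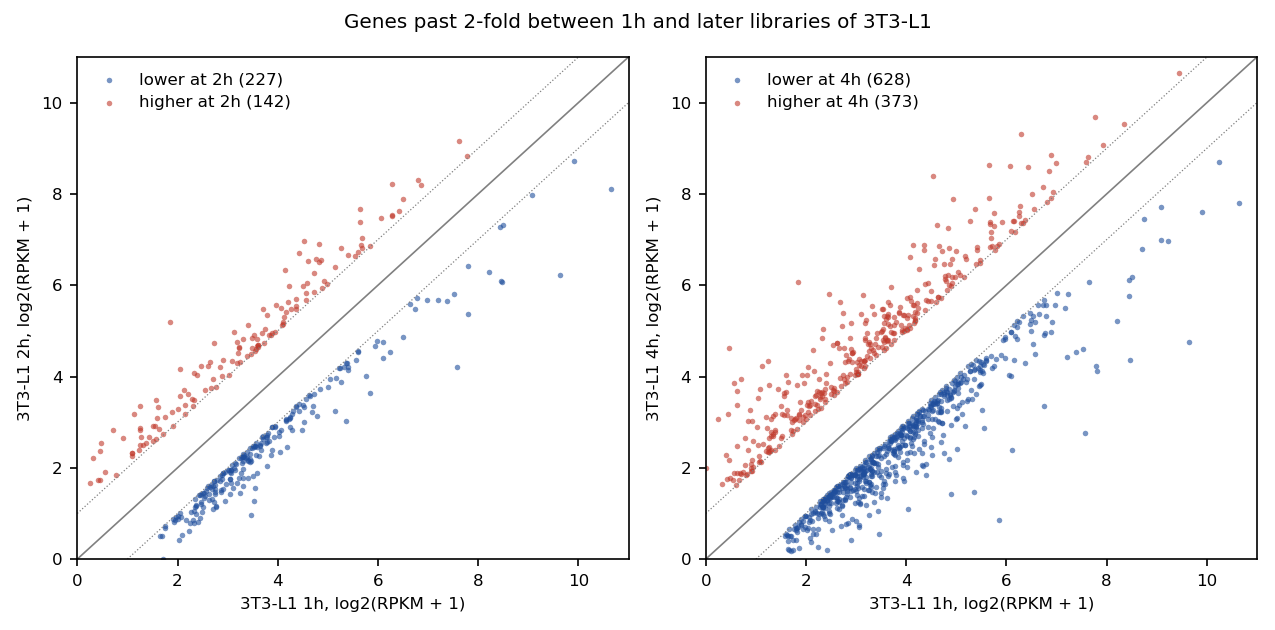
Each point is a gene past the 2-fold threshold, with log2(RPKM + 1) at 1h on the x axis and at 2h (left) or 4h (right) on the y axis; the solid line is equality and the dotted lines a difference of 1. The 4h panel holds 628 lower and 373 higher genes against 227 and 142 at 2h.

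At the edge of the threshold, Dtx3l, Tacc2 and Thap11 were just inside at 2h (13.9 to 6.40, 13.9 to 6.38 and 19.6 to 9.23 RPKM) and Chst12, Keap1 and Kdm6a just outside (18.8 to 8.90, 16.6 to 7.79 and 12.01 to 5.52 RPKM). Usp36 and Bysl, just inside the rise at 4h, went from 7.26 to 15.6 and from 16.9 to 34.8 RPKM, and Metrnl and Gfod1, just outside, from 21.3 to 43.6 and from 5.73 to 12.4 RPKM. These genes were chosen for their place beside the threshold.

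Several AP-1 and EGR factors were among the genes that decayed furthest. AP-1 and EGR factors are DNA-binding proteins that carry the first response to serum and cAMP to later genes. Their list here also holds other early genes, among them Btg2, Ier2 and Ier5, and Btg2 is counted again in the mRNA decay and p53 lists. Of 19 list members at 2 RPKM or more, 9 were lower and 1 higher at 2h, and 10 lower and 1 higher at 4h. By the median of ratios 2 were higher at 2h. Their summed level was 699 RPKM at 0h, 3036 at 1h, 1136 at 2h and 826 at 4h, and their median difference at 4h was −2.06, against −0.13 for all genes at 2 RPKM or more. Under every scaling tried it lay between −2.10 and −1.81.

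Egr1, the early growth response factor, stood at 224 RPKM at 0h, 794 at 1h, 73.7 at 2h and 25.98 at 4h. Its log2 differences from 1h were −3.41 at 2h and −4.88 at 4h, and it fell to a level below that of 0h at both times. Fos, a partner of the JUN proteins in AP-1, stood at 16.9, 189, 17.5 and 5.83 RPKM and fell (−3.36 at 2h, −4.8 at 4h). Fosb, a second FOS protein, stood at 2.36, 56.7, 11.4 and 0.81 RPKM and fell (−2.22 at 2h, −5.0 at 4h), the largest difference at 4h by the naming rule. Its 2h level was still above that of 0h, while that of Fos was close to it.

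Egr2, also called Krox20 and known as a promoter of adipogenesis, stood at 6.74 RPKM at 0h, 39.9 at 1h, 7.12 at 2h and 1.78 at 4h. Egr3 stood at 6.55, 68.0, 26.2 and 4.24 RPKM. At 2h the differences of Egr2 and Egr3 were −2.33 and −1.34, and at 4h they were −3.88 and −3.72, so the pair reached nearly the same 4h difference by separate courses. Btg2, an antiproliferative cofactor of the mRNA deadenylase, stood at 35.0, 353, 66.2 and 19.5 RPKM and fell (−2.40 at 2h, −4.11 at 4h). Ier2, a nuclear protein of the early response, stood at 115, 348, 66.9 and 53 RPKM and fell (−2.36 at 2h, −2.69 at 4h), so most of its fall lay before 2h.

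Not every AP-1 gene decayed. Members of this and later lists named beyond the 4 leading ones were chosen after their values were seen. Fosl1, a FOS protein without the strong activation domain of Fos, went the other way, from 14.3 RPKM at 0h and 29.4 at 1h to 67.5 at 2h and 235 at 4h, and rose by 1.17 and 2.96. Fosl2, its relative, stood at 185 RPKM at 1h, 190 at 2h and 93.0 at 4h, without passing the fold. Jun, the main partner of all of them, was 62.3 RPKM at 1h, 26.4 at 2h and 41.4 at 4h, past the fold at 2h with −1.21 and not at 4h with −0.58, and Junb went from 541 to 250.3 and 126 RPKM. In the brown line, Fosl1 stood at 37.0 RPKM at 1h and 39.6 at 4h.

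**Figure D2:**
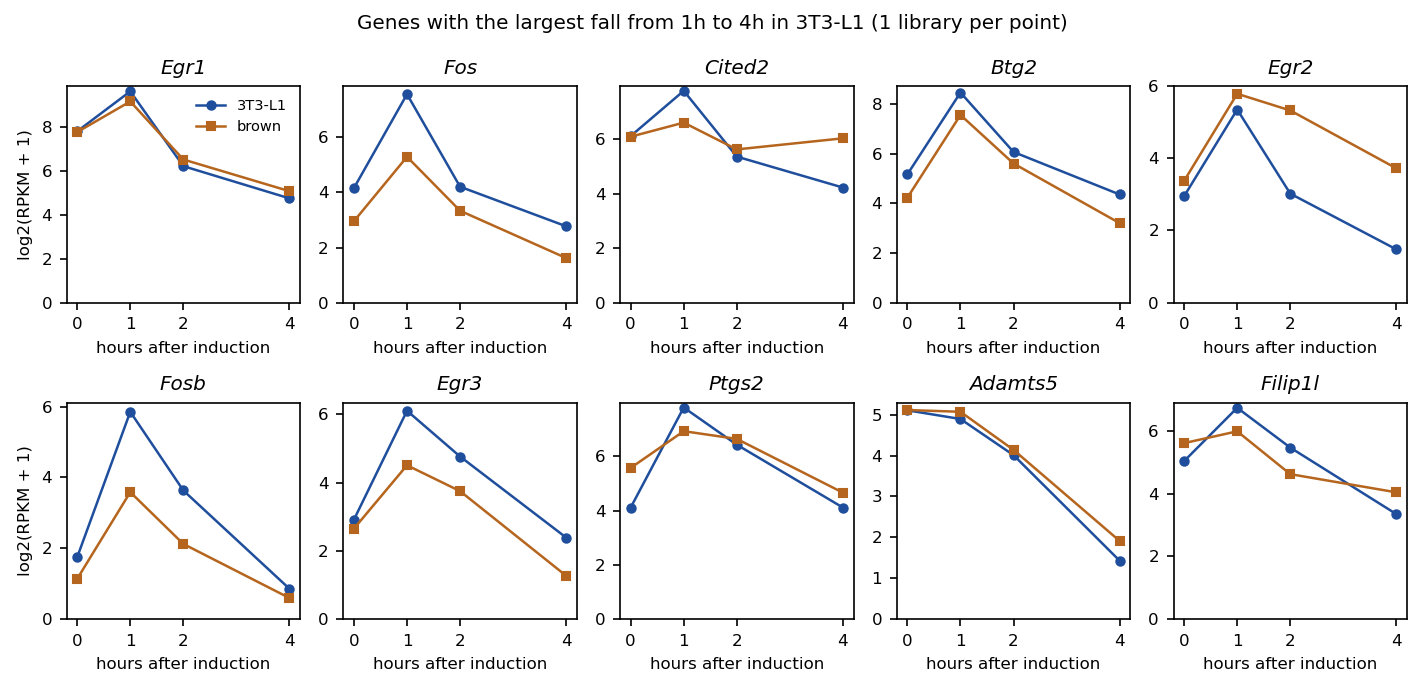
The 10 genes that fell furthest from 1h to 4h in 3T3-L1 by the naming rule: x axis hours after induction, y axis log2(RPKM + 1), 1 library a point, blue circles 3T3-L1 and brown squares the brown line. Egr2 falls from 39.9 to 1.78 RPKM in 3T3-L1, and Adamts5 falls without a peak at 1h.

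The orphan nuclear receptors of the NR4A family and the Krüppel-like factors (KLF) form the next set of early regulators. Of 13 measured at 2 RPKM, 5 were lower and 2 higher at 2h, and 7 lower and 1 higher at 4h (2 higher by the median of ratios), with a median of −1.16 at 4h. Nr4a1, a receptor induced by cAMP and the most abundant of them, stood at 49.9 RPKM at 0h, 960 at 1h, 422 at 2h and 195 at 4h and fell (−1.18 at 2h, −2.29 at 4h). Nr4a2 held 37.8 RPKM at 1h and 35.8 at 2h and then fell to 16.4. Nr4a3 stood at 1.14, 45.8, 98.3 and 17.95 RPKM, so it rose by 1.09 at 2h and fell by 1.30 at 4h against 1h. Nr4a1 was thus highest at 1h and Nr4a3 at 2h. The difference of Nr4a2 at 2h, −0.08, was smaller in size than the −0.14 of all genes, so its highest time depends on the scaling.

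Klf2, a KLF that restrains Pparg, stood at 7.02 RPKM at 0h, 10.6 at 1h, 1.43 at 2h and 1.94 at 4h and fell (−2.25 at 2h, −1.98 at 4h). Klf6, a KLF with a role in promoting adipogenesis, stood at 64.0, 166, 49.2 and 22.1 RPKM and fell (−1.74 at 2h, −2.85 at 4h). Klf5, which C/EBP factors induce early in adipogenesis, stood at 5.92, 17.7, 62.0 and 40.7 RPKM and rose by 1.76 and 1.16. Klf4, named in the title of the series, stood at 11.4 RPKM at 0h, 29.3 at 1h, 36.5 at 2h and 17.95 at 4h, with differences of 0.31 and −0.68 that stayed inside the fold. Klf5 was at 2.87 RPKM at 1h and 2.34 at 2h in the brown line, where it did not pass.

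Feedback inhibitors of MAP kinase signalling went both ways, with more lower than higher at 4h. These are the dual-specificity phosphatases (DUSP), which remove phosphate from MAP kinases, and the Sprouty proteins, which act on receptor tyrosine kinases. Of 16 measured, 2 were lower and 1 higher at 2h, and 5 lower and 2 higher at 4h, and after either rescaling 0 were lower at 2h. Spry2 stood at 18.2 RPKM at 0h, 108 at 1h, 51.7 at 2h and 29.8 at 4h, and its relative Spry1 at 6.11, 14.4, 6.48 and 3.34. Both were past the fold at 2h, by −1.05 and −1.04, but not after either rescaling. Dusp2 reached 10.2 RPKM at 1h and 16.1 at 2h before it fell to 2.49, while Dusp4 went from 6.15 to 17.4 and 19.3 RPKM and rose by 1.36 and 1.51.

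Some messages of mRNA decay factors fell with the early genes. Zfp36, which binds AU-rich elements, stood at 48.8 RPKM at 0h, 296 at 1h, 77.2 at 2h and 36.1 at 4h and fell (−1.93 at 2h, −3.0 at 4h). Zfp36l1, its relative, stood at 97.9, 125, 50.5 and 46.8 RPKM and fell (−1.29 at 2h, −1.40 at 4h), and Zfp36l2 stood at 238, 239.9 and 279 RPKM from 1h to 4h. Of the 14 genes of this list 3 fell at each time, the third being Btg2, and 0 rose.

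NF-kB targets, cytokines and chemokines went both ways. Of 22 measured, 4 were lower and 3 higher at 2h, and 7 lower and 4 higher at 4h. Cxcl1, a neutrophil-attracting chemokine, stood at 11.0 RPKM at 0h, 183 at 1h, 55.2 at 2h and 23.3 at 4h and fell (−1.71 at 2h, −2.93 at 4h). Il6, an inflammatory cytokine, stood at 1.25, 27.9, 13.96 and 3.54 RPKM and fell by 2.67 at 4h, with −0.95 at 2h. Tnfaip3 (A20), which shuts NF-kB signalling off, stood at 2.43, 10.7, 1.93 and 2.15 RPKM and was at its lowest already at 2h.

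The members of that list that started were Il11, Il1rl1, Csf1 and, at 4h, Cx3cl1. Il11, a cytokine of the IL-6 family, stood at 0.47 RPKM at 0h, 0.63 at 1h, 6.10 at 2h and 14.4 at 4h and rose by 2.12 and 3.24. Il1rl1, the receptor of IL-33, stood at 6.98, 16.6, 79.1 and 117 RPKM and rose by 2.19 and 2.75. Il1r1, the signalling receptor of IL-1, which lies outside the list, stood at 13.0, 20.6, 103 and 65.3 RPKM and rose by 2.27 and 1.62. The 2 receptors rose together at 2h and parted by 4h, when Il1r1 stood below its 2h level.

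Feedback genes of JAK-STAT signalling, the route of IL-6 type cytokines and growth hormone, went both ways. Socs3, an inhibitor of the IL-6 receptor, stood at 6.82 RPKM at 0h, 7.79 at 1h, 30.4 at 2h and 53.9 at 4h and rose by 1.84 and 2.64. Socs2, an inhibitor of growth hormone signalling, stood at 0.88, 1.71, 5.40 and 12.3 RPKM and rose by 1.24 and 2.30. Socs5 went down, from 24.9 RPKM at 1h to 9.15 and 8.32. Pim1, a kinase induced by STAT factors, stood at 5.71, 20.7, 20.5 and 7.35 RPKM and was past the fold downward at 4h. Of 11 genes of this list, 1 was lower and 2 higher at 2h, and 2 lower and 3 higher at 4h, with medians of 0.20 and 0.23, and 4 were higher at 2h after either rescaling.

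Targets of serum response factor and YAP, which follow the state of the actin cytoskeleton, included the most abundant decaying message. Cyr61, a matrix protein, stood at 244 RPKM at 0h, 1602 at 1h, 274 at 2h and 221 at 4h and fell (−2.55 at 2h, −2.85 at 4h), back to about its 0h level. Ctgf, of the same protein family, stood at 9.81, 118, 87.4 and 30.2 RPKM and passed the fold at 4h with −1.93. Thbs1, thrombospondin, was highest at 2h, at 187, 1204, 1617 and 412 RPKM, and fell by 1.55 at 4h. Filip1l, a regulator of cell migration, stood at 32.0, 106, 43.5 and 9.20 RPKM and fell (−1.27 at 2h, −3.39 at 4h). Actb itself stood at 1434, 1491 and 1586 RPKM from 1h to 4h, and 5 of the 14 list members were lower and 1, Vcl, higher at 4h (0 higher by quantile scaling).

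Genes of matrix proteolysis and of prostaglandin synthesis and reception went both ways. Of 17 proteases and inhibitors of the matrix, 0 were lower and 3 higher at 2h, and 2 lower (Adamts1 and Adamts5) and 4 higher at 4h (Adamts9, Timp1, Timp3 and Plaur). Over all 10355 genes, 2.19% were lower and 1.37% higher at 2h, and 6.06% and 3.6% at 4h, so 2 of 17 lower is not far from the share. Of 10 genes of the prostaglandin list, 2 were lower and 0 higher at 2h, and 3 lower and 1 higher at 4h. Ptgs2 (cyclooxygenase 2), the inducible prostaglandin synthase that indomethacin inhibits, stood at 16.3 RPKM at 0h, 223 at 1h, 85.3 at 2h and 16.3 at 4h and fell (−1.37 at 2h, −3.69 at 4h). Adamts1, a protease of proteoglycans, stood at 196, 601, 306 and 125 RPKM and fell by 2.26 at 4h. Adamts5, another such protease, showed no rise at 1h, with 33.4 RPKM at 0h, 28.7 at 1h, 15.1 at 2h and 1.69 at 4h, and fell by 3.47. Ptges, the prostaglandin E synthase that acts after Ptgs2, stood at 19.6 RPKM at 1h and 63.7 at 4h and rose by 1.65.

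Cited2, a transcriptional coregulator and competitor of HIF1A, was among the 10 largest falls at both times. It stood at 68.8 RPKM at 0h, 220.0 at 1h, 40.3 at 2h and 17.8 at 4h in 3T3-L1. The brown line had it at 67.7, 97.3, 48.7 and 64.9 RPKM, with differences of −0.99 and −0.58 that stayed inside the fold.

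Among p53 targets, which slow growth under stress, 5 of 15 were lower at 2h and 6 at 4h, and 0 were higher. By the median of ratios 3 were lower at 2h, and by quantile scaling 2. Plk2, a polo-like kinase, stood at 63.5 RPKM at 0h, 146 at 1h, 49.9 at 2h and 20.4 at 4h and fell (−1.53 at 2h, −2.78 at 4h). Gadd45a and Gadd45g, stress proteins, were at 36.2 and 143 RPKM in the 1h library, against 9.96 and 44.3 at 4h. Cdkn1a (p21), the classical p53 target, stood at 145, 128 and 107 RPKM from 1h to 4h and Mdm2 at 981, 821 and 600 RPKM, neither past the fold.

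Genes for the sugar precursors of hyaluronan, a large matrix polysaccharide, were among those that started. Uap1, which makes UDP-N-acetylglucosamine, stood at 15.4 RPKM at 0h, 22.1 at 1h, 125 at 2h and 337 at 4h and rose by 2.44 and 3.87. Ugdh, which makes UDP-glucuronate, stood at 42.2, 76.7, 296 and 631 RPKM and rose by 1.93 and 3.02. Gfpt2, which feeds glucose carbon into the hexosamine route, stood at 0.81, 1.18, 8.02 and 17.9 RPKM and rose by 2.05 and 3.11. The hyaluronan synthase Has2 stood at 4.92, 10.1, 21.4 and 15.4 RPKM, past the fold at 2h with 1.01 and not at 4h with 0.57. Cd44, the hyaluronan receptor, stood at 32.2, 31.1, 51.1 and 107 RPKM and rose by 1.76 at 4h.

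Over the hexosamine and hyaluronan list, 4 of 11 were higher at each time and 0 lower (1 at 2h with a pseudocount of 0.1), with medians of 0.70 and 0.64. Gfpt1 and Pgm3, housekeeping enzymes of the same route, were at 29.2 and 5.09 RPKM in the 1h library, against 46.0 and 7.27 at 4h, inside the fold. Uap1 in the brown line went from 29.1 to 61.8 and 151 RPKM, Ugdh from 92.6 to 228 and 402, and Gfpt2 from 4.93 to 19.5 and 37.8 between 1h, 2h and 4h, each past the fold at both times. Cd44 stood at 127 and 141 RPKM there at 1h and 4h, inside the fold. At day 2 in 3T3-L1, Uap1 was at 31.0, Ugdh at 66.5 and Cd44 at 20.7 RPKM.

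**Figure D3:**
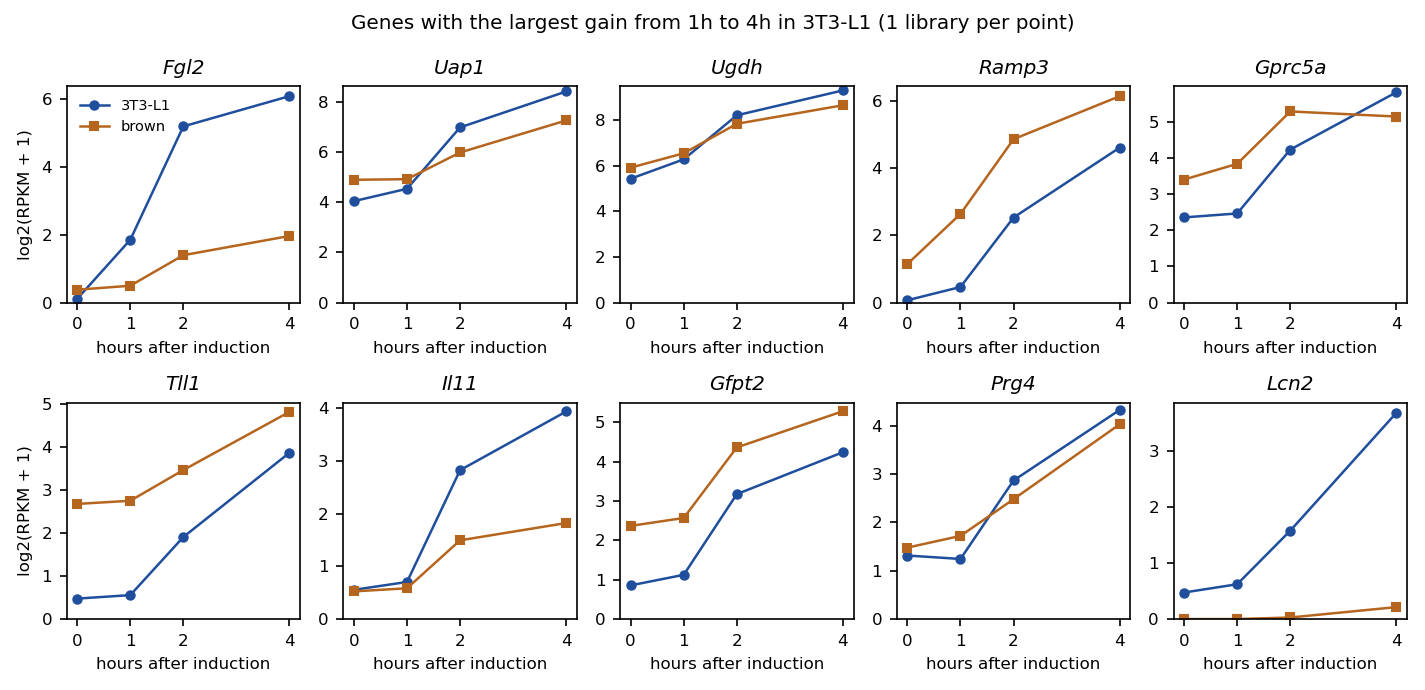
The 10 genes that gained most from 1h to 4h in 3T3-L1 by the naming rule: x axis hours after induction, y axis log2(RPKM + 1), 1 library a point, blue circles 3T3-L1 and brown squares the brown line. Fgl2 climbs to 66.4 RPKM in 3T3-L1 and 2.89 RPKM in the brown line, and Lcn2 to 11.9 and 0.16 RPKM.

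Fgl2, a secreted fibrinogen-like protein, had the largest gain at both times. It stood at 0.08 RPKM at 0h, 2.60 at 1h, 35.4 at 2h, 66.4 at 4h and 0.16 at day 2 and rose by 3.34 and 4.23. In the brown line it stood at 0.30, 0.41, 1.63 and 2.89 RPKM, past the fold at 4h. Ramp3, a partner of calcitonin-family receptors, stood at 0.05, 0.38, 4.8 and 23.6 RPKM and rose by 2.07 and 4.15. Its 1h value rested on about 25.2 reads, so the log2 ratio of its reads at 4h and 1h has a counting interval of ±0.57. Gprc5a, an orphan receptor, stood at 4.11, 4.51, 17.7 and 55.2 RPKM and rose by 1.77 and 3.35.

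Vdr, the vitamin D receptor, was the one nuclear receptor outside NR4A that was higher, of 14 measured. It stood at 12.8 RPKM at 0h, 49.1 at 1h, 202 at 2h and 394 at 4h, rose by 2.02 and 2.98 and was at 48.5 RPKM at day 2. Brown cells had it at 8.98, 19.7, 82.3 and 128 RPKM. Nr3c1, the glucocorticoid receptor, and Nr3c2, the mineralocorticoid receptor, were lower at 4h, with differences of −1.26 and −1.65. Nr3c1 stood at 22.5, 18.9, 11.4 and 7.30 RPKM and Nr3c2 at 3.50, 3.61, 2.51 and 0.47 RPKM.

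Glucocorticoid-responsive genes divided evenly, with 8 of 21 lower and 8 higher at 4h. Sgk1, a kinase that dexamethasone and serum both induce, stood at 44.8 RPKM at 0h, 360.1 at 1h, 159 at 2h and 71.4 at 4h and fell (−1.17 at 2h, −2.32 at 4h). Glul, glutamine synthetase, stood at 3.61, 5.38, 12.5 and 48.8 RPKM and rose by 1.08 and 2.96. Lcn2, a secreted siderophore-binding protein, stood at 0.39, 0.54, 1.99 and 11.9 RPKM, rose by 3.06 at 4h and was at 219 RPKM at day 2. Fkbp5, a chaperone partner of the receptor, stood at 52.7 RPKM at 1h and 189.5 at 4h. Pdk4, a kinase that restrains glucose oxidation, was at 65.1 RPKM at 1h and 2h and 15.3 at 4h.

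The metallothioneins, small metal-binding proteins, were the most abundant messages that rose. Mt1 stood at 259 RPKM at 0h, 698 at 1h, 989 at 2h and 1604 at 4h and rose by 1.2 at 4h. Mt2 stood at 49.99, 218, 456 and 823 RPKM and rose by 1.06 and 1.91. Since these paralogs are much alike, reads may have been split between them. Col4a1 and Col4a2, chains of basement membrane collagen, were at 326 and 244 RPKM in the 1h library, against 734 and 539 at 4h and rose by 1.17 and 1.14.

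Among cAMP feedback genes and CREB targets, some began as Fosb and Nr4a1 of the same list fell. Pde4d, a phosphodiesterase that breaks cAMP down, stood at 3.98 RPKM at 0h, 5.12 at 1h, 17.8 at 2h and 25.5 at 4h and rose by 1.62 and 2.11. Crem, whose short form ICER represses cAMP targets, stood at 1.48, 1.99, 5.15 and 4.94 RPKM, past the fold at 2h with 1.04 and just short of it at 4h with 0.99. Ppargc1a, the coactivator PGC-1α, stood at 1.98, 2.35, 0.83 and 0.14 RPKM and fell by 1.56 at 4h. Of 15 measured, 2 were lower and 5 higher at 2h, and 4 lower and 3 higher at 4h, where either rescaling or a pseudocount of 0.1 gave 5 higher.

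Growth factors went both ways too. Ereg (epiregulin), a ligand of the EGF receptor, stood at 5.67 RPKM at 0h, 27.4 at 1h, 118 at 2h and 54.8 at 4h, and Hbegf, another such ligand, at 2.34, 10.2, 27.7 and 12.1. Fgf2 stood at 0.61, 1.06, 1.70 and 10.5 RPKM and rose by 2.48 at 4h. Vegfa, which drives vessel growth, stood at 77.2 RPKM at 1h, 181 at 2h and 163 at 4h. Nrg1 (neuregulin) went down, from 22.0 RPKM at 1h to 3.87 at 4h. Counts over the 14 measured were 1 lower and 4 higher at 2h, and 4 and 4 at 4h.

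Transport and sugar metabolism had no member that fell. Of 15 measured, 3 were higher at 2h and 5 at 4h. Slc20a1, a phosphate carrier, stood at 22.1 RPKM at 0h, 27.4 at 1h, 90.7 at 2h and 152 at 4h and rose by 1.69 and 2.43. Hk2, hexokinase, stood at 11.3, 25.98, 93.7 and 87.3 RPKM and rose by 1.81 and 1.71. Slc2a1, the basal glucose carrier, stood at 42.5, 53.2, 85.2 and 156 RPKM and rose by 1.53 at 4h. Timp1, an inhibitor of matrix proteases, followed a like course with 60.9, 65.8, 177 and 388 RPKM and rose by 1.41 and 2.54.

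Some genes of ribosome biogenesis passed the fold at 4h. Of 20 measured, 0 passed at 2h and 7 were higher and 0 lower at 4h, and the median moved from 0.08 to 0.65. Nop56, a core protein of the box C/D complexes that modify ribosomal RNA, stood at 30.6 RPKM at 0h, 26.4 at 1h, 32.3 at 2h and 69.1 at 4h and rose by 1.36. Polr1b, a subunit of RNA polymerase I, stood at 7.65, 6.09, 6.13 and 14.96 RPKM and rose by 1.17. Rrp12, Rrp9, Nop2, Nolc1 and Rrs1 were the others past the fold. Of the same 20, 0 passed in the brown line at 4h, with a median of 0.28 and Nop56 at 37.1 RPKM at 1h and 57.2 at 4h. Only 1.83% of the 10355 genes were higher in the brown line at 4h, so 0 of 20 is near that share.

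Cholesterol synthesis moved the other way at 4h. Of 22 measured, 0 passed at 2h, and at 4h 13 were lower and 1 higher, with a median of −0.38 at 2h and −1.22 at 4h. Insig1, which holds the sterol-sensing complex in the endoplasmic reticulum, stood at 44.7 RPKM at 0h, 44.8 at 1h, 22.9 at 2h and 8.67 at 4h and fell by 2.24. Sc4mol (methylsterol monooxygenase) stood at 141, 120, 89.4 and 35.5 RPKM and fell by 1.73.

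Pmvk, phosphomevalonate kinase, was the member that rose, from 17.6 RPKM at 1h to 58.9 at 4h (1.69). The regulator Srebf2 stood at 58.5 RPKM at 1h, 50.5 at 2h and 33.8 at 4h, inside the fold. Under the other scalings 12 of the 22 were lower, with a median of −1.10 or −1.11. In the brown line the median at 4h was −0.30, 0 were lower and 1, Pmvk, was higher, from 20.5 to 67.6 RPKM. Only 1.46% of the 10355 genes were lower in the brown line at 4h, so 0 of 22 is near that share. Insig1 stood there at 42.3 RPKM at 1h and 24.2 at 4h.

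**Figure D4:**
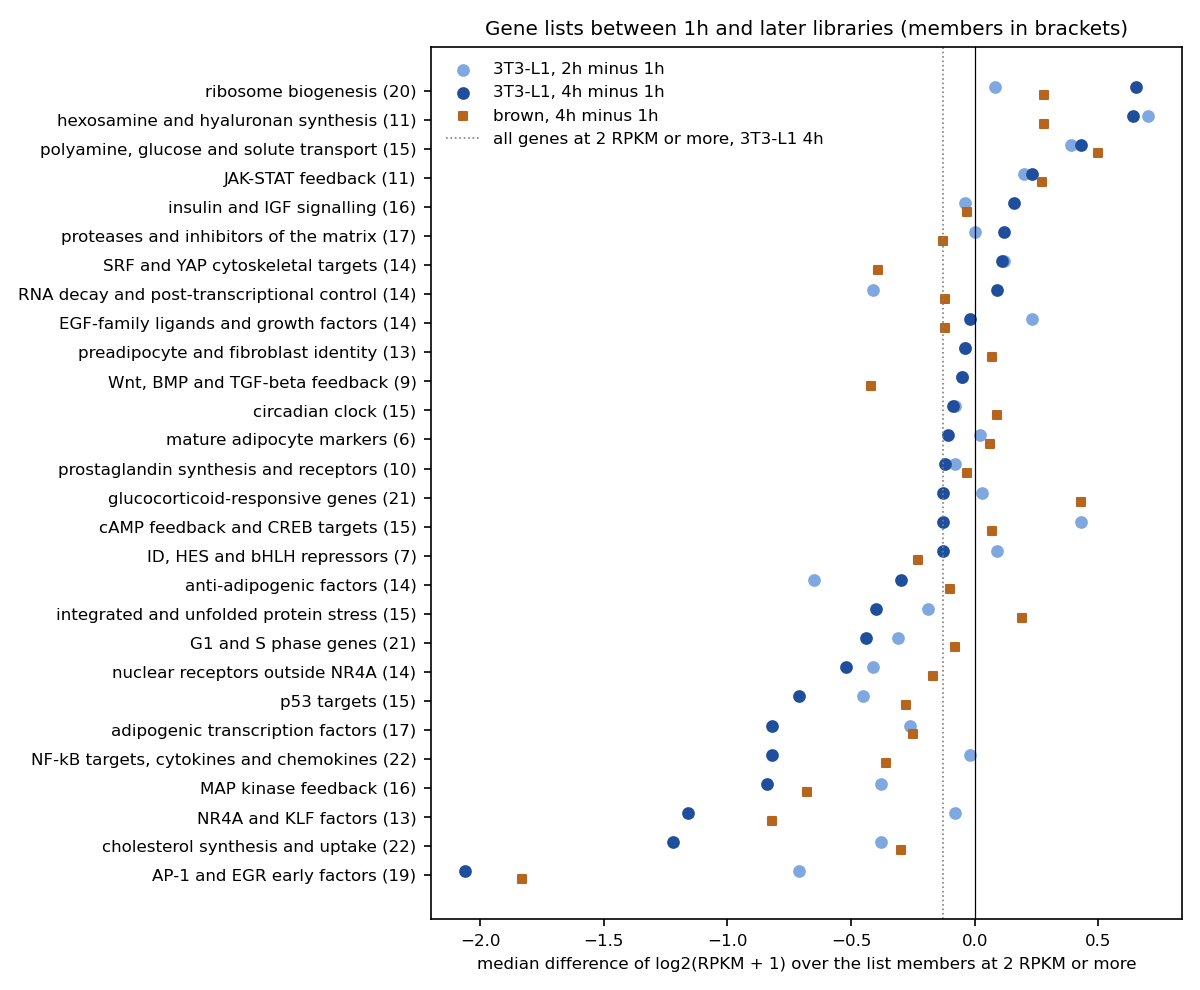
Each row is a gene list with its number of members at 2 RPKM or more; the x axis is the median difference of log2(RPKM + 1) from 1h at 2h (light blue) and 4h (dark blue) in 3T3-L1 and at 4h in the brown line (squares). The AP-1 and EGR list lies at −2.06 and the ribosome biogenesis list at 0.65 at 4h in 3T3-L1, and the dotted line marks the median of all genes, −0.13.

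Transcription factors of adipogenesis had 7 of 17 members lower and 0 higher at 4h. Zfp423, which commits cells to the preadipocyte fate, stood at 8.71 RPKM at 0h, 10.4 at 1h, 6.44 at 2h and 1.58 at 4h and fell by 2.14. Nfia and Nfib were at 8.91 and 24.2 RPKM in the 1h library, against 2.82 and 9.14 at 4h. Cebpd, an early C/EBP factor, went from 73.0 to 63.1 and 32.8 RPKM, while Cebpb, its partner, stayed inside the fold at 468, 484 and 420.2 RPKM. Pparg stood at 15.4 RPKM at 0h, 16.5 at 1h, 13.5 at 2h and 15.7 at 4h, inside the fold at 2h and 4h, and it was at 82.7 RPKM at day 2.

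Of 14 inhibitors of adipogenesis, 5 were lower and 0 higher at 4h and the other 9 stayed inside the fold, with a median of −0.30. Zfp521, an antagonist of Zfp423 and Ebf1, stood at 17.7, 19.02, 9.31 and 3.17 RPKM and fell by 2.26. Ddit3 (CHOP) stood at 112, 107, 56.9 and 29.2 RPKM and fell by 1.84, and Sox9 at 14.3, 36.5, 18.97 and 10.4 RPKM and fell by 1.72. Dlk1 (Pref-1), the marker of preadipocytes, was at 203, 205 and 239.5 RPKM from 1h to 4h, inside the fold. Pdgfrb, a growth factor receptor of fibroblasts, stood at 117, 110.0, 72.6 and 38.8 RPKM and fell by 1.48.

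In insulin signalling, Irs1, the insulin receptor substrate, stood at 8.49 RPKM at 0h, 5.54 at 1h, 1.15 at 2h and 0.94 at 4h and fell (−1.60 at 2h, −1.75 at 4h). Irs2 stood at 99.4, 86.6 and 73.1 RPKM from 1h to 4h, inside the fold. Igf1 went from 2.27 to 5.69 and 7.57 RPKM and rose by 1.03 and 1.39, the first of these below the fold when the transcript was chosen within the 3 libraries. Among clock genes Per2, a repressor of the clock, stood at 1.96, 4.72 and 11.4 RPKM and rose by 2.07 at 4h, and Dbp, an output factor, stood at 7.41, 2.89 and 1.30 RPKM and fell (−1.11 at 2h, −1.87 at 4h), the first of these inside the fold after either rescaling.

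A brief group stood highest at 2h. By a rise of at least 1 over 1h and a fall of at least 1 to 4h, 15 genes (0.145%) peaked there, and in the brown line 7 (0.0676%) of the same genes at 2 RPKM or more in 3T3-L1 did. The gene in both was Nr4a3. Zswim6, a zinc finger protein, stood at 3.16 RPKM at 1h, 17.0 at 2h and 5.34 at 4h. Bach1, a repressor of haem oxygenase, stood at 47.5, 104 and 44.0 RPKM, and Aff1 and Ell2, parts of the super elongation complex of RNA polymerase II, at 25.4, 56.9 and 24.2 and at 13.2, 29.3 and 9.38. Ereg, Hbegf, Phf16, Mtmr10, Raph1, Grhl1 and 2410021H03Rik were the others longer than 200 bases. The 3 remaining are the microRNA entries Mir155, Mir3068 and Mir677, whose RPKM rests on very short annotated lengths.

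The brown libraries were not compared to call the members and share no library with 3T3-L1. They entered only the choice of transcript for each symbol, made over all libraries. There, 50 (0.483%) of the 10355 genes were lower at 2h and 80 (0.773%) higher, and 151 (1.46%) lower and 190 (1.83%) higher at 4h. Of the 227 genes lower at 2h in 3T3-L1, 42 (18.5%) were lower in the brown line as well and 1 higher. Of the 142 higher at 2h, 47 (33.1%) were higher and 0 lower. At 4h it was 110 (17.5%) of 628 lower, with 2 higher, and 113 (30.3%) of 373 higher, with 0 lower. Counted over the brown line's own calls of 10588 genes at 2 RPKM there (60, or 0.567%, and 91, or 0.859%, at 2h; 179, or 1.69%, and 220, or 2.08%, at 4h), the shared genes were 70.0% and 51.6% at 2h and 61.5% and 51.4% at 4h.

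Differences were smaller in the brown line for all 4 sets. The median for the genes lower at 4h was −1.27 in 3T3-L1, which the threshold sets, and −0.60 in the brown line, and for the genes higher 1.34 and 0.69. At 2h the medians were −1.18 and −0.67, and 1.28 and 0.71. The members were chosen on their 3T3-L1 values, which holds those medians past 1 in size. In 66 of the 628 genes lower and 34 of the 373 higher at 4h, the brown line was under 2 RPKM at all 3 times.

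**Figure D5:**
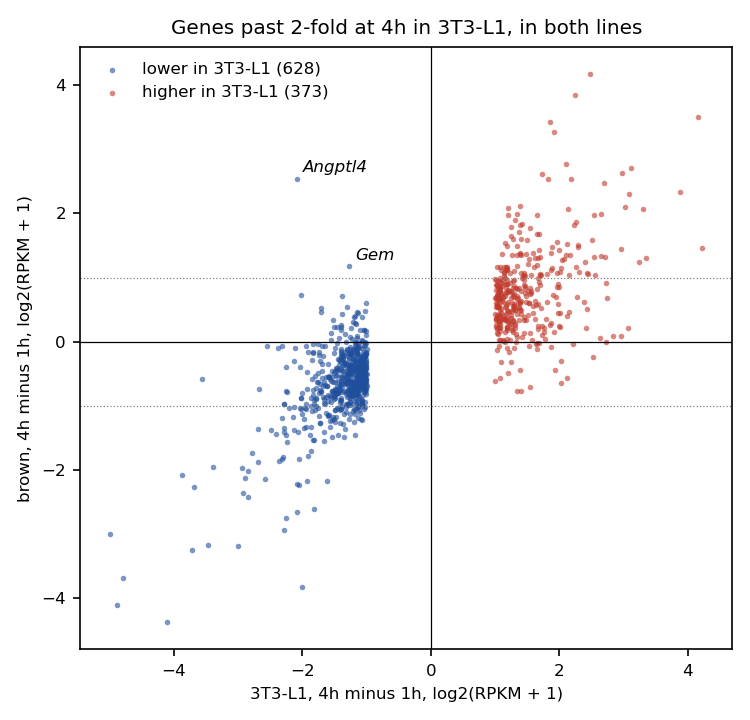
Each point is a gene past the threshold at 4h in 3T3-L1; the x axis is its difference of log2(RPKM + 1) from 1h in 3T3-L1 and the y axis that in the brown line, with dotted lines at −1 and 1. Most points lie in the lower left and upper right, and Angptl4 and Gem lie past the fold on opposite sides.

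Day 2 and 0h are separate libraries from those compared to call the members, and entered only the choice of transcript. Against 0h, 11.6% of the 10355 genes were lower at day 2 and 4.71% higher. Of the 628 genes lower at 4h, 247 (39.3%) were lower at day 2 than at 0h and 23 (3.7%) higher, and of the 373 higher at 4h, 113 (30.3%) were higher and 35 (9.4%) lower. For the genes higher at 2h it was 39 (27.5%) higher and 21 (14.8%) lower, and for those lower at 2h 7 (3.1%) higher and 72 (31.7%) lower. At day 7, with 20.7% of all lower than at 0h and 7.98% higher, the genes higher at 4h were 84 (22.5%) lower and 56 (15%) higher. The genes lower at 4h were 289 (46.0%) lower and 54 (8.6%) higher at day 7. Late libraries carry file headers of another style, so time and a possible difference in handling cannot be told apart.

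Single genes show both fates after 4h. Glul went from 48.8 RPKM at 4h to 202 at day 2, and Lcn2 and Socs2 also stood higher at day 2 than at 4h. Fgl2, Il1rl1, Nipal1, a magnesium carrier, and Il11 were at 0.16, 0.89, 0.33 and 0.25 RPKM at day 2, from 66.4, 117, 10.9 and 14.4 at 4h. Of 6 mature adipocyte markers measured, 2 were lower and 1 higher at 4h than at 1h, with a median of −0.11. The 2 lower, Lipe (hormone-sensitive lipase) and Plin4 (perilipin 4), went from 6.33 and 33.5 RPKM at 1h to 1.98 and 9.82 at 4h and 127 and 82.1 at day 2. The 1 higher, Dgat2, went from 1.55 RPKM at 1h to 5.44 at 4h and 38.4 at day 2. Irs1 returned from 0.94 to 6.28 RPKM at day 2 and 40.1 at day 7.

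A rise from 0h to 1h was also looked for in the brown line, whose libraries were not compared to call the members. Most members lower in 3T3-L1 did not pass the fold there, 206 of those lower at 2h and 594 of those lower at 4h. Between 0h and 1h, 0.676% of the 10355 genes were higher there and 0.0386% lower, and higher were 19 (8.4%) of the 227 lower at 2h and 33 (5.3%) of the 628 lower at 4h in 3T3-L1. The other members lower at 4h did not pass the fold upward at 1h in that line, where Adamts5 stood at 33.6 RPKM at 0h and 32.6 at 1h. Transcript length, which bears on RPKM, had a median of 3072 and 3116 bases in the genes lower at 2h and 4h, 3054 and 2848 in those higher and 2738 in all genes at 2 RPKM or more.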

How the data were processed

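Groups were read off the sample titles, 1 library to each of 14 groups. RPKM values of 29082 RefSeq transcripts were deposited by the authors for the culture samples, as the header lines name them. For the tissue samples the authors deposited read counts next to RPKM, and these counts served to derive transcript lengths. The submitters' processing notes name CASAVA 1.8.2 and mm9 but not what each was for. Aligner, counter and strand setting: not given in the sources used here. Overlapping genes and near-identical copies therefore cannot be told apart.

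Of 49 symbols that had become dates, 48 were restored through their accession (RefSeq, GRCm38.p6). The fold rule was a difference of log2(RPKM + 1) of at least 1 with the higher RPKM at least 2, which understates differences of low genes. With 1 library a group there was no test. Scripts ran in Python 3.11.15 with pandas 2.3.3 and numpy 2.4.6, and were tested on simulated data. Depth was fitted so that low RPKM values lie near whole reads, so the 100% found within 0.2 of a whole read is not a separate check. Of 22780 transcripts with a derived and a GENCODE length, 48.9% had the 2 within 1% of each other. Promoter and 3′ untranslated sequences came from RefSeq (GRCm38.p6) and GENCODE (GRCm38), not from mm9.

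Named are the 10 largest differences in each direction at 2h and at 4h with an RPKM of at least 10, up to 8 peaks at 2h, up to 4 members of each of 31 lists, the 5 most abundant in each direction at 4h, and Klf4, Egr2 and Pparg. The members and lists were chosen with earlier results of these data known. In the cholesterol list, 1 of 24 symbols had no match and was not analysed here.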

Additional observations from a re-analysis of the deposited data

Results flagged for a closer look

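Angptl4 and Gem passed the fold in opposite directions in the 2 lines, and the difference was not tested, since each line has 1 library a time. Angptl4, a secreted inhibitor of lipoprotein lipase and a target of PPAR and glucocorticoid receptors, stood in 3T3-L1 at 75.4 RPKM at 0h, 67.3 at 1h, 20.2 at 2h and 15.1 at 4h, with differences of −1.69 at 2h and −2.08 at 4h. In the brown line it stood at 3.82, 10.1, 24.4 and 63.8 RPKM, with differences of 1.19 and 2.54. By day 2 it was at 94.7 and 180.3 RPKM. Gem, a small GTPase that restrains calcium channels, stood in 3T3-L1 at 14.3, 29.7, 34.6 and 11.7 RPKM from 0h to 4h, with a difference of −1.27 at 4h. In the brown line it stood at 4.10, 7.50, 21.9 and 18.3 RPKM, with a difference of 1.18.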

How the results depend on the processing

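Counts given above for single lists that moved by over 1.5 times stand beside those lists. Of the 9 counts over all members, those that moved so are as follows. With a pseudocount of 0.1, 431 genes were lower at 2h, 23 peaked at 2h, 78 of those lower at 2h were lower in the brown line too, and 180 of those lower at 4h were. Rescaling by the median of ratios gave 138 lower at 2h and 24 peaks, and quantile scaling 106 lower at 2h and 406 lower at 4h. The share of higher among called genes was 38.5% at 2h and 37.3% at 4h as deposited, 60.1% and 49.8% by the median of ratios, and 64.3% and 52.9% by quantiles. Each rescaling moves the median of all genes towards 0 by its construction. Of 182 calls of named genes, 8 fell inside the fold by the median of ratios and 9 by quantiles. With the transcript chosen in the 3 libraries 1 did (Igf1 at 2h), and with transcripts summed 0. A pseudocount of 0.1 could lose none, since a smaller pseudocount only enlarges a difference. No call of a named gene changed sign under these settings. The smaller pseudocount cannot change a sign. Neither can the median of ratios past the fold, with size factors of 1.003, 0.892 and 0.917 at 1h, 2h and 4h. Medians of lists near 0, such as the clock and prostaglandin lists, changed sign under rescaling. No paired analysis was possible because each group has 1 library and no test was made. Leaving out a library was not possible for the same reason. Low genes limit precision: the log2 ratio of the reads of Ptger4 at 4h and 1h has a counting interval of ±0.74.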
